A study of Mus musculus with 8 samples.

Results

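The Notch receptor genes Notch1, Notch2 and Notch3, the nuclear partners Rbpj and Maml2, and the Notch-linked genes Nrarp, Dtx1, Dtx2, Hes1 and Hes6 were followed in thymic type 2 innate lymphoid cells (ILC2). They were picked by symbol, with earlier results of these data known, and make up 10 of the 50686 genes in the deposited count table. All 10 passed the filter on low counts and were among the 13644 genes tested. RNA sequencing had been done on total RNA in 8 libraries, 2 in each of 4 groups. The ILC2 were from the thymus of C57BL/6 plck-Id1 mice, whose transgene uses the proximal Lck promoter, active in thymocytes, to drive Id1, an inhibitor of E proteins. The cells had been transduced with the MIGR1 retrovirus, sorted for GFP and grown in a medium whose cytokines included IL-33, IL-25 and IL-7. The groups were E47-ER at 16 h, GFP at 16 h, E47-ER at 4 h and GFP at 4 h. E47-ER is the E protein E47, a product of Tcf3, fused to an estrogen receptor part that 4-hydroxytamoxifen activates, and MIGR1 with GFP alone is its control. All 4 groups, controls included, had received 4-hydroxytamoxifen for the stated time, and no E47-ER library without the drug was analysed here. A difference between E47-ER and GFP cells that was present before the drug and one that came with it cannot be told apart. Whether replicates were separate cultures or animals is not in the labels, so the p-values reflect library-to-library spread that may be technical only.

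Notch receptors are surface proteins that are cut when a neighbouring cell presents a ligand of the Delta-like or Jagged family. The freed intracellular part enters the nucleus, binds the DNA-binding protein RBPJ and recruits a Mastermind-like coactivator, which turns on targets such as the HES repressors and the feedback inhibitor NRARP. In the thymus this signal directs progenitors to the T cell fate, and it has also been tied to the development of ILC2.

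The libraries held 8813782 to 18677675 counts. The shallowest, replicate 2 of GFP at 16 h, stood apart: its mean correlation with the others was 0.954, against 0.98 to 0.983 for the other 7. Genes with under 2028 exon bases were 0.65 higher (median, log2) in it than in the other libraries, and genes with over 7131 exon bases were lower by a median of -0.36. It is called the second GFP 16 h library below, and its partner the first. For the 10 genes and most named pathway genes, results at 16 h are given with and without it where it moves them. The marker values in this paragraph include it, and how far it moves them is not given. Esr1, the estrogen receptor gene to which reads of the construct can map, stood at 43.7 and 54.4 CPM (counts scaled to a common library size) in E47-ER cells at 16 h, against 0.537 and 0.930 CPM in GFP cells at 16 h. At 4 h it stood at 52.5 and 45.6 CPM in E47-ER cells, against 0.316 and 0.211 CPM in GFP cells. All 11 ILC2 markers were measured, and they summed to 16500 to 16900 CPM in E47-ER cells at 16 h, against 20200 to 26600 CPM in GFP cells at 16 h. At 4 h they summed to 17600 to 18400 CPM in E47-ER cells, against 20100 to 22600 CPM in GFP cells. The lower sum lay in the cytokine genes Il5, Il13 and Areg, which together stood at 9770 to 9900 CPM in E47-ER cells at 16 h, against 13900 to 18900 CPM in GFP cells, while the other 8 markers summed to 6690 to 7000 CPM in E47-ER cells, against 6350 to 7750 CPM in GFP cells. Rora was called higher at 16 h (log2 fold change 1.004, edgeR adjusted p = 0.0139), and no other marker of the list passed the test. Log2 fold changes at 16 h were 1.01 for Il17rb, 0.76 for Thy1, 0.07 for Icos, -0.08 for Il1rl1 and -0.09 for Il7r. Gata3 was at -0.43 and Klrg1 at -0.73, and the cytokine genes Il13, Il5 and Areg were at -0.65, -0.83 and -0.96. Of 7 thymic stroma markers, 2 were tested and Foxn1 was at 0 in all libraries. The stroma list summed to 180 to 193 CPM in E47-ER cells at 16 h, against 133 to 157 CPM in GFP cells (at 4 h 156 to 158 CPM in E47-ER cells, against 151 to 152 CPM in GFP cells), and its member Epcam was called higher (log2 fold change 1.56, edgeR adjusted p = 0.0285). The T cell list (4 of 8 tested), with Cd8a and Cd8b1 under 10 counts over all libraries, summed to 43.4 to 48.9 CPM in E47-ER cells at 16 h, against 32.1 to 38.5 CPM in GFP cells, and at 4 h to 37.4 to 37.5 CPM in E47-ER cells, against 33.7 to 37.7 CPM in GFP cells. The myeloid list (3 of 6 tested), with Lyz2 under 10 counts, summed to 7.67 to 8.99 CPM in E47-ER cells at 16 h, against 4.78 to 6.24 CPM in GFP cells, and at 4 h to 8.55 to 8.76 CPM in E47-ER cells, against 4.49 to 5.87 CPM in GFP cells. Of the 5 natural killer and ILC1 markers Ncr1 was at 0, and Klrb1c, Eomes and Tbx21 were under 10 counts. With the remaining marker, Gzma, the list summed to 6360 to 7880 CPM in E47-ER cells at 16 h, against 2880 to 7480 CPM in GFP cells. At 4 h the sum was 5260 to 7880 CPM in E47-ER cells, against 3020 to 3490 CPM in GFP cells. Gzma had log2 fold changes of 0.46 at 16 h (edgeR adjusted p = 0.48) and 1.01 at 4 h (edgeR adjusted p = 0.8). The part of these lists in the results below was not tested. In bulk RNA, fewer cells of a type and less RNA per cell cannot be told apart.

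Set per length, as CPM per kb of exon averaged over the 8 libraries, the 10 genes covered most of the range of tested genes. Notch2 had the highest mean at 24.3 CPM per kb, above 83.7% of tested genes. Hes6 followed at 19.1, Rbpj at 15.2, Notch1 at 10.1 and Hes1 at 6.73 CPM per kb. Dtx2 at 3.29, Maml2 at 2.34 and Nrarp at 1.91 CPM per kb lay below the median tested gene, which stood at 4.91. Dtx1 at 0.203 CPM per kb exceeded 4.74% of tested genes, and Notch3 at 0.0831 exceeded 0.85%. Neighbours in this order overlapped over the 8 libraries except at 3 steps. The lowest Rbpj library (12.26 CPM per kb) lay just above the highest Notch1 library (12.23), the lowest Nrarp library (1.14) above the highest Dtx1 library (0.433), and the lowest Dtx1 library (0.136) above the highest Notch3 library (0.121). The order of group means differed in places. Hes6 at 23.3 CPM per kb stood above Notch2 at 21.4 in GFP cells at 16 h, and Rbpj at 17.9 above Hes6 at 17.3 in GFP cells at 4 h. In E47-ER cells at 16 h Hes1 at 11.1 stood above Notch1 at 10.5, and Nrarp at 3.30 above Maml2 at 2.41. In GFP cells at 4 h Hes1 at 2.96 stood below Dtx2 at 3.21.

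**Figure D1:**
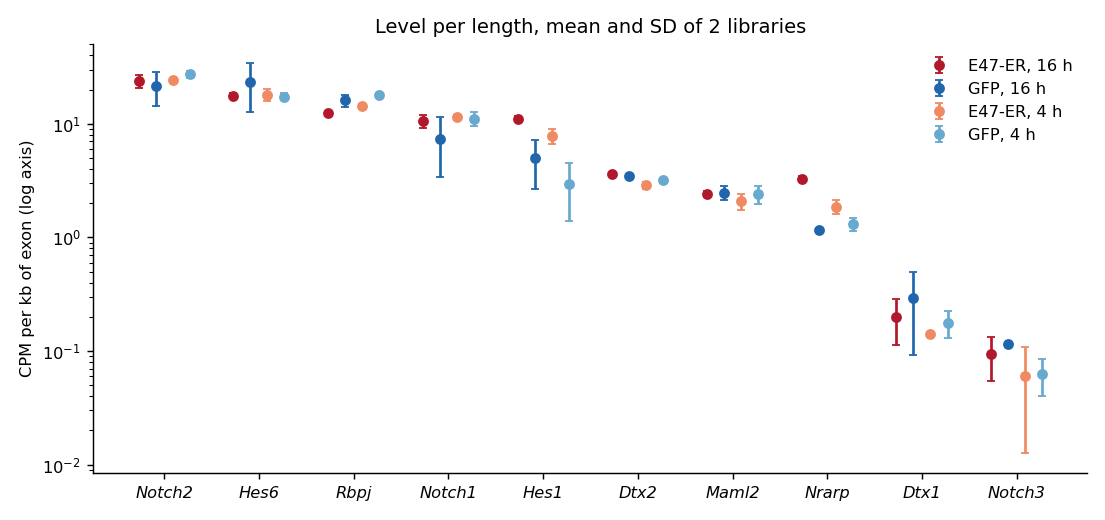
Level per length of the 10 genes on a log axis (CPM per kb of exon), in order of the mean over 8 libraries; points are means of 2 libraries and bars their SD. Notch2, Hes6 and Rbpj lead at 24.3, 19.1 and 15.2 CPM per kb, and Dtx1 and Notch3 lie far below the rest at 0.203 and 0.0831.

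Nrarp, which encodes a small ankyrin repeat protein that restrains the Notch transcription complex, was the only gene of the 10 to pass the test in E47-ER against GFP cells at 16 h. It spans chr2:25180758-25183339 on the plus strand (GRCm38) and has 2582 exon bases. Of these, 2051 overlap the antisense gene Gm38287, which had 0 counts. The strand setting is not stated, and whether this overlap lowered the counts and the level per length of Nrarp was not tested. Nrarp stood at 8.20 and 8.82 CPM in E47-ER cells at 16 h, against 2.95 and 3.06 CPM in GFP cells at 16 h. The 4 h libraries gave 5.31 and 4.31 CPM in E47-ER cells, against 3.66 and 3.06 CPM in GFP cells. Every E47-ER library lay above every GFP library, and both E47-ER libraries at 16 h lay above both at 4 h. The counts behind these levels were low, 123 and 153 in E47-ER cells at 16 h, against 44 and 23 in GFP cells at 16 h. Group levels were 8.51 ± 0.435 CPM in E47-ER cells at 16 h and 3.004 ± 0.0744 CPM in GFP cells at 16 h (SD, n = 2 each). At 4 h they were 4.81 ± 0.702 CPM in E47-ER cells and 3.36 ± 0.425 CPM in GFP cells (SD, n = 2 each).

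At 16 h Nrarp was 2.84-fold higher in E47-ER than in GFP cells (log2 fold change 1.504, SE 0.229, 95% interval 0.98 to 2.03, adjusted p = 0.0218, edgeR quasi-likelihood with Benjamini-Hochberg adjustment over all genes). The call stood in 9 of 18 alternatives, with a log2 fold change between 1.46 and 1.62 in all of them. With the second GFP 16 h library left out, the adjusted p by edgeR was 0.000963, and by DESeq2 on all libraries it was 0.000423. It was lost with 0.248 and 0.148 when replicate 2 or replicate 1 of E47-ER at 16 h was left out, with 0.0606 to 0.0662 without any 1 of the 4 h libraries (of E47-ER or GFP), with 0.243 in the 4 libraries of 16 h alone and with 0.224 by limma voom with quality weights. At 4 h the log2 fold change was 0.52 (SE 0.222, 95% interval 0.01 to 1.03, unadjusted p = 0.0461, adjusted p = 0.838 by edgeR). The difference between both fold changes, 16 h minus 4 h, was 0.98 (SE 0.319, unadjusted p = 0.0148, adjusted p = 0.699 by edgeR).

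The promoter of Nrarp is shown because it is the gene that passed the test, followed by those of Rbpj and Hes6, for which the table gave 2 promoters each and whose first promoter holds the motifs described here. Each is the RefSeq promoter (GRCm38.p6) from 250 bases before to 50 bases after the start, 5′ to 3′ on the gene's strand, at chr2:25180508-25180807 (plus), chr5:53590096-53590395 (plus) and chr1:91413989-91414288 (minus). Capitals mark the E boxes CAGCTG and CACCTG, bound by E proteins, and the RBPJ core TGGGAA, on both strands, so that CAGGTG and TTCCCA were searched too.
Nrarp: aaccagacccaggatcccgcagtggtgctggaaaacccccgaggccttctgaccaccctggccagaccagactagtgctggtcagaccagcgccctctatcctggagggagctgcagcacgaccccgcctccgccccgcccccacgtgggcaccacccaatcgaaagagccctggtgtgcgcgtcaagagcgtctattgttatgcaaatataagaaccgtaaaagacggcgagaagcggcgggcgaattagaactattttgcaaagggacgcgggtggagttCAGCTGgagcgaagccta
Rbpj: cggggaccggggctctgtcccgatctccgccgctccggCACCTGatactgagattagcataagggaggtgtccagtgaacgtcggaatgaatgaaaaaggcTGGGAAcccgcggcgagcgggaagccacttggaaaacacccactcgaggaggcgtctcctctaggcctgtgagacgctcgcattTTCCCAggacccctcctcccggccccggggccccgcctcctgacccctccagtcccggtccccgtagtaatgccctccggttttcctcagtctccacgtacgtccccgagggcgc
Hes6: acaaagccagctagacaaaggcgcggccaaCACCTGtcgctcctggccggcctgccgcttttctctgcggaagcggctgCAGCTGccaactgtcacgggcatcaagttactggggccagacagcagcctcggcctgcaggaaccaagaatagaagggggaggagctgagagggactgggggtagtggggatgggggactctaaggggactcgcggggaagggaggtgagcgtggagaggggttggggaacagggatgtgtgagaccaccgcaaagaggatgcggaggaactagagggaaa

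Nrarp held 1 motif, a CAGCTG 32 bases after the start. Rbpj held a CACCTG 212 bases before the start and the RBPJ core at 149 bases before it, with a core on the other strand 65 bases before it. Hes6 held a CACCTG 220 bases and a CAGCTG 171 bases before the start. RefSeq promoters were found for 9 of the 10 genes (not for Hes1), 12 promoters in all. Beside those shown, a CAGCTG lay in the second promoter of Hes6, and the RBPJ core on the other strand lay in Dtx2 and in the second promoter of Maml2. The second Rbpj window overlaps the first and holds only the TTCCCA already shown, at the same genomic site. None of the 3 motifs was in the windows of Notch1, Notch2, Notch3 or Dtx1. Of all 32851 promoters of the same length, 16.3% held CAGCTG, 20.2% CACCTG and 25.6% the RBPJ core. A match to these letters is a description and not a binding site.

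Hes1, a basic helix-loop-helix repressor and a classical Notch target, spans chr16:30064384-30067796 on the plus strand (GRCm38) and has 2037 exon bases. It stood at 23.4 and 21.9 CPM in E47-ER cells at 16 h, against 6.84 and 13.4 CPM in GFP cells at 16 h. Its 4 h levels were 14.3 and 17.7 CPM in E47-ER cells, against 3.79 and 8.29 CPM in GFP cells. All E47-ER libraries lay above all GFP libraries, and the replicates of GFP differed from each other by 0.97 (log2) at 16 h and by 1.13 at 4 h. Group levels were 22.7 ± 1.07 CPM in E47-ER cells at 16 h, 10.1 ± 4.65 CPM in GFP cells at 16 h (SD, n = 2 each), and for 4 h they were 16.0 ± 2.38 CPM in E47-ER cells and 6.04 ± 3.18 CPM in GFP cells (SD, n = 2 each).

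For Hes1 in E47-ER over GFP cells the log2 fold change was 1.20 at 16 h (SE 0.389, 95% interval 0.31 to 2.10, unadjusted p = 0.0146, adjusted p = 0.146 by edgeR) and 1.39 at 4 h (SE 0.39, 95% interval 0.49 to 2.29, unadjusted p = 0.00725, adjusted p = 0.449 by edgeR). Neither passed the test over all genes. DESeq2 gave adjusted p = 0.0386 at 16 h and 0.0445 at 4 h, and limma voom gave 0.261 at 16 h and 0.00451 at 4 h. With the second GFP 16 h library left out, the log2 fold change at 16 h was 1.72 (adjusted p = 0.0238 by edgeR), and on leaving out the first GFP 16 h library it was 0.78 (adjusted p = 0.119). The log2 fold change at 4 h was 1.38 on leaving out the second GFP 16 h library and 1.37 on leaving out the first. With each of the 8 libraries left out in turn it ran from 0.95 to 2.07. Hes1 was called at 4 h in 5 of 18 alternatives, and not in the 4 libraries of 4 h alone. The fold changes at both times differed by -0.19 (16 h minus 4 h, SE 0.546, edgeR adjusted p = 0.904). With each library left out in turn this difference ran from -0.86 to 0.34. Its sign changed in 2 of 17 alternatives, with 0.34 on leaving out the second GFP 16 h library and 0.26 on leaving out the first GFP 4 h library.

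Hes6, a relative of Hes1 that opposes Hes1 in neural cells, spans chr1:91411483-91414038 on the minus strand (GRCm38) and has 1808 exon bases. It stood at 33.2 and 30.7 CPM in E47-ER cells at 16 h, against 28.4 and 55.7 CPM in GFP cells at 16 h. After 4 h of drug the level was 29.7 and 35.2 CPM in E47-ER cells, against 29.8 and 32.9 CPM in GFP cells. The groups overlapped at both times, and replicate 2 of GFP at 16 h was the highest of the 8 libraries. The log2 fold change was -0.38 at 16 h (SE 0.278, 95% interval -1.02 to 0.26, adjusted p = 0.402 by edgeR), and it was 0.16 on leaving out the second GFP 16 h library and -0.78 on leaving out the first (adjusted p = 4.89e-05). At 4 h it was 0.05 (SE 0.276, adjusted p = 1.0 by edgeR).

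**Figure D2:**
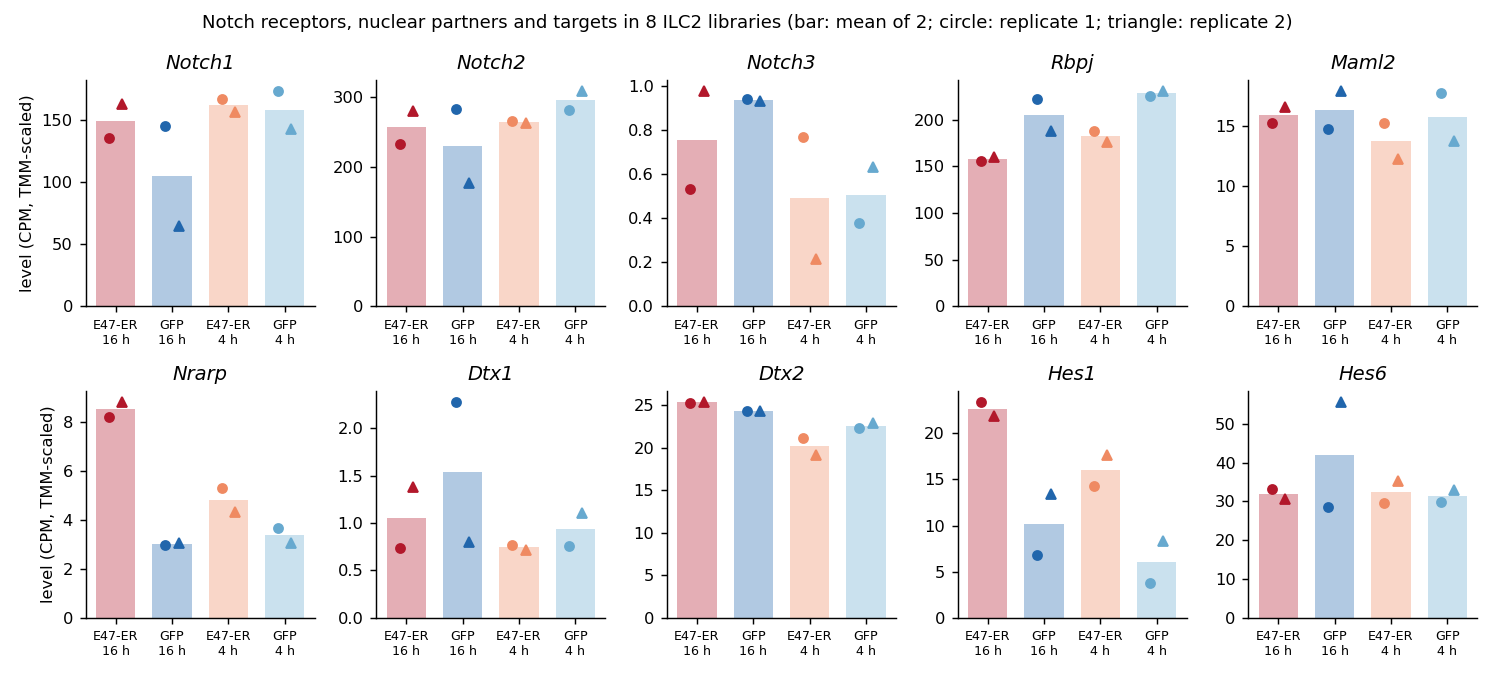
Levels of the 10 genes in each library (CPM, TMM-scaled), E47-ER left of GFP at each time; bars are means of 2 libraries, circles replicate 1 and triangles replicate 2. For Nrarp and Hes1 every E47-ER library lies above every GFP library. For Hes1, and also for Notch1, Notch2, Dtx1 and Hes6, the 2 GFP libraries at 16 h lie far apart.

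Rbpj encodes the DNA-binding partner of the cleaved receptors, which holds targets repressed when no receptor part is bound. It spans chr5:53466152-53657362 on the plus strand (GRCm38) and has 12750 exon bases. It stood at 156 and 160 CPM in E47-ER cells at 16 h, against 222 and 187.5 CPM in GFP cells at 16 h. At 4 h it stood at 188 and 177 CPM in E47-ER cells, against 225 and 231 CPM in GFP cells. The E47-ER libraries lay below the GFP libraries at each time. Group levels were 158 ± 2.51 CPM in E47-ER cells and 205 ± 24.2 CPM in GFP cells at 16 h (SD, n = 2 each), and for 4 h they were 182 ± 7.79 CPM in E47-ER cells and 228 ± 4.39 CPM in GFP cells (SD, n = 2 each).

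For Rbpj the log2 fold change was -0.37 at 16 h (SE 0.13, 95% interval -0.67 to -0.07, unadjusted p = 0.0204, adjusted p = 0.159 by edgeR) and -0.33 at 4 h (SE 0.13, 95% interval -0.62 to -0.03, unadjusted p = 0.0358, adjusted p = 0.8 by edgeR). Neither passed the test over all genes. At 16 h it was -0.50 on leaving out the second GFP 16 h library (adjusted p = 0.000958 by edgeR), -0.22 on leaving out the first GFP 16 h library (adjusted p = 0.0569) and -0.63 with an offset for transcript length (adjusted p = 0.0261). At 4 h the adjusted p by edgeR was 0.0127 on leaving out the second GFP 16 h library and 0.0121 on leaving out the first, and 0.0264 in the 4 libraries of 4 h alone.

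Maml2, a Mastermind-like coactivator that joins RBPJ and the receptor part, spans chr9:13297957-13709388 on the plus strand (GRCm38) and has 6598 exon bases. It stood at 15.2 and 16.5 CPM in E47-ER cells at 16 h, against 14.8 and 17.9 CPM in GFP cells at 16 h. The 4 h libraries gave 15.3 and 12.2 CPM in E47-ER cells, against 17.7 and 13.8 CPM in GFP cells. The groups overlapped at both times. Its log2 fold change was -0.03 at 16 h (95% interval -0.49 to 0.43, adjusted p = 0.926 by edgeR) and -0.19 at 4 h (95% interval -0.65 to 0.26, adjusted p = 1.0 by edgeR).

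Among the receptors, Notch2 was highest, Notch1 next and Notch3 close to the limit of detection, and none passed the test at either time. Notch1, the main receptor of early thymic T cell development, spans chr2:26457903-26516663 on the minus strand (GRCm38) and has 14232 exon bases, the most of the 10. It overlaps 0610009E02Rik and Gm13568 on the other strand, with 55 and 13 counts, and without a stated strand setting reads of overlapping genes cannot be told apart. It stood at 136 and 163.5 CPM in E47-ER cells at 16 h, against 145 and 64.7 CPM in GFP cells at 16 h. Its 4 h levels were 167.5 and 157 CPM in E47-ER cells, against 174 and 143 CPM in GFP cells. The single low value was that of replicate 2 of GFP at 16 h, and the groups overlapped at both times.

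The log2 fold change of Notch1 at 16 h was 0.50 (SE 0.321, 95% interval -0.24 to 1.25, adjusted p = 0.344 by edgeR). It was 0.04 on leaving out the second GFP 16 h library (adjusted p = 0.908) and 1.23 on leaving out the first GFP 16 h library (adjusted p = 6.78e-07). With an offset for transcript length it was 0.29. At 4 h it was 0.04 (SE 0.319, 95% interval -0.70 to 0.77, adjusted p = 1.0 by edgeR), and -0.004 with the length offset.

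Notch2, the receptor best known for marginal zone B cells, spans chr3:98013527-98150361 on the plus strand (GRCm38), has 10782 exon bases and overlaps Gm42820, which had 282 counts. It stood at 233 and 281 CPM in E47-ER cells at 16 h, against 284 and 178 CPM in GFP cells at 16 h. After 4 h of drug the level was 266 and 262.5 CPM in E47-ER cells, against 281 and 310 CPM in GFP cells. The groups overlapped at 16 h, and both E47-ER libraries lay below both GFP libraries at 4 h. The log2 fold change was 0.15 at 16 h (SE 0.215, 95% interval -0.34 to 0.65, adjusted p = 0.66 by edgeR) and -0.16 at 4 h (SE 0.215, 95% interval -0.66 to 0.33, adjusted p = 1.0 by edgeR). At 16 h it was -0.15 on leaving out the second GFP 16 h library, 0.56 on leaving out the first GFP 16 h library (adjusted p = 0.000259) and -0.07 with the length offset.

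Notch3, a receptor of vascular smooth muscle and of thymocytes, spans chr17:32120820-32166852 on the minus strand (GRCm38) and had 79 counts over the 8 libraries, with 11 for the antisense gene Gm17276. It stood at 0.534 and 0.980 CPM in E47-ER cells at 16 h, against 0.939 and 0.930 CPM in GFP cells at 16 h. At 4 h it stood at 0.767 and 0.216 CPM in E47-ER cells, against 0.379 and 0.633 CPM in GFP cells. In these libraries 3 counts correspond to 0.158 to 0.399 CPM, so that a difference was not detectable at this depth (log2 fold change -0.29 at 16 h, 95% interval -1.66 to 1.09, and -0.03 at 4 h, 95% interval -1.53 to 1.47).

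The Deltex genes encode ubiquitin ligases that act on Notch signalling. Dtx2, at chr5:135994800-136032872 on the plus strand (GRCm38), had the smallest difference of the 10 genes between the 2 GFP libraries at 16 h on the log2 scale. It stood at 25.3 and 25.4 CPM in E47-ER cells at 16 h, against 24.4 and 24.3 CPM in GFP cells at 16 h. The 4 h libraries gave 21.2 and 19.1 CPM in E47-ER cells, against 22.3 and 22.9 CPM in GFP cells. The E47-ER libraries lay above the GFP libraries at 16 h and below them at 4 h, but the log2 fold changes of 0.06 (95% interval -0.25 to 0.36, adjusted p = 0.798 by edgeR) and -0.16 (95% interval -0.47 to 0.14, adjusted p = 1.0 by edgeR) did not pass the test. With the length offset the value at 16 h was -0.13.

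Dtx1, a direct Notch target in T lineage cells, lies at chr5:120680202-120711927 on the minus strand (GRCm38) and had 130 counts over the 8 libraries. It stood at 0.734 and 1.38 CPM in E47-ER cells at 16 h, against 2.28 and 0.798 CPM in GFP cells at 16 h. Its 4 h levels were 0.767 and 0.719 CPM in E47-ER cells, against 0.758 and 1.11 CPM in GFP cells. The groups overlapped at both times. The log2 fold change was -0.63 at 16 h (SE 0.529, adjusted p = 0.463 by edgeR), with -1.09 on leaving out the second GFP 16 h library and 0.45 on leaving out the first, and -0.34 at 4 h (SE 0.571, adjusted p = 1.0 by edgeR).

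**Figure D3:**
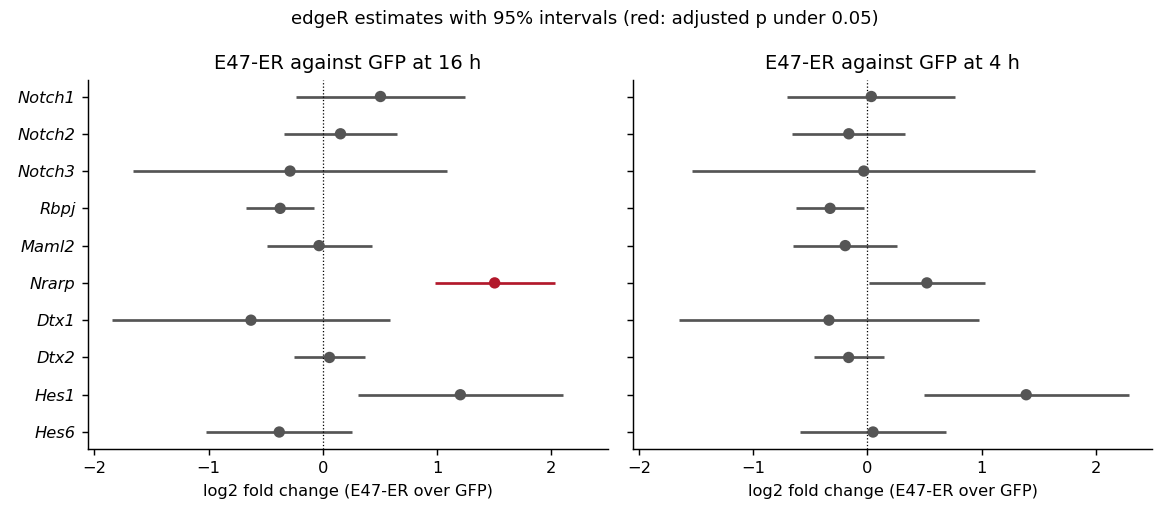
Log2 fold change of E47-ER over GFP at 16 h (left) and 4 h (right) with 95% intervals from edgeR; red marks adjusted p under 0.05. Nrarp at 16 h (1.504) is the only red value, and Hes1 stands at 1.20 at 16 h and 1.39 at 4 h.

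Over the 10 genes, 1 was called in E47-ER against GFP at 16 h, where 1.59% of all tested genes were called, and 3 had an unadjusted p under 0.05 (Nrarp, Hes1 and Rbpj), where 24.0% of all tested genes did. At 4 h none was called by edgeR, where 0.286% of tested genes were. The same 3 genes had an unadjusted p under 0.05 there, where 5.82% of tested genes did, and DESeq2 and limma voom each called Hes1, as higher. Of all tested genes, 0.77% were called higher by DESeq2 there, 1.96% by limma voom and 0.271% by edgeR. With the second GFP 16 h library left out, 3 of the 10 (Nrarp, Hes1 and Rbpj) were called at 16 h, where 8.92% of tested genes were, and 2 (Hes1 and Rbpj) at 4 h, where 4.33% were. E47-ER and GFP libraries did not overlap for 4 of the 10 genes at 16 h, against 54.3% of tested genes (3 higher in E47-ER, against 27.8%, and 1 lower, against 26.6%). At 4 h they did not overlap for 5 of the 10, against 45.3% (2 higher, against 22.4%, and 3 lower, against 22.9%). They lay apart in the same direction at both times for 3 (Nrarp and Hes1 higher, Rbpj lower), against 22.3% of tested genes, and with 10 genes these counts were close to the background. The median log2 fold change of the 10 was 0.01 at 16 h and -0.10 at 4 h, against -0.01 and -0.00 over all tested genes.

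**Figure D4:**
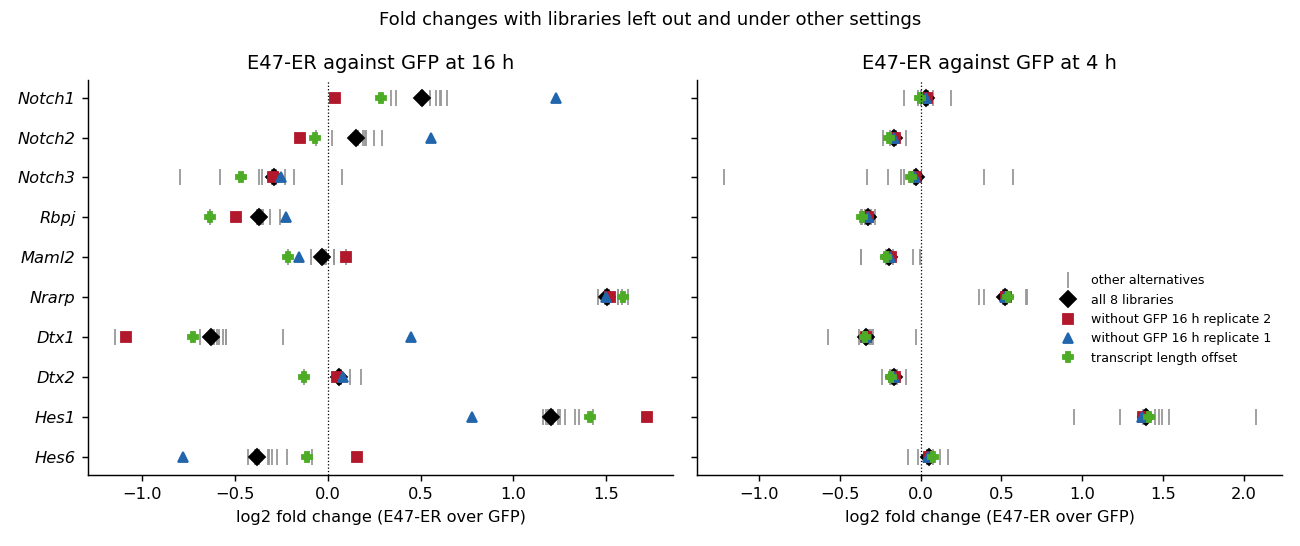
Log2 fold change of E47-ER over GFP at 16 h (left) and 4 h (right) with all libraries (diamonds), without replicate 2 (squares) or replicate 1 (triangles) of GFP at 16 h, with a transcript length offset (plus signs) and under the other alternatives (ticks). At 16 h Nrarp keeps to 1.46 to 1.62, while Notch1 is at 0.04 without replicate 2 and at 1.23 without replicate 1.

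Time was compared within each transduction. In E47-ER cells none of the 10 genes was called at 16 h against 4 h by edgeR or DESeq2, where edgeR called 0.0147% of all tested genes. Nrarp and Dtx2 had an unadjusted p under 0.05, as did 5.09% of tested genes. Fitted alone, the 4 E47-ER libraries gave more calls over all genes than edgeR on all libraries. Of 13644 tested genes limma voom called 406, among them Nrarp. Its log2 fold change was 0.82 (SE 0.212, unadjusted p = 0.00451, adjusted p = 0.858 by edgeR), and its adjusted p was 0.0344 on leaving out the second GFP 16 h library and 0.0303 on leaving out the first, 0.00765 in the 4 E47-ER libraries alone and 0.0167 by limma voom. Hes1 had 0.50 (adjusted p = 1.0 by edgeR, 0.0127 in the 4 E47-ER libraries alone) and Dtx2 had 0.33 (adjusted p = 0.981 by edgeR). In GFP cells none was called at 16 h against 4 h by edgeR, DESeq2 or limma voom, none had an unadjusted p under 0.05 in edgeR (9.07% of tested genes did), and 0.0% of all tested genes were called by edgeR. Nrarp had a fold change of -0.16 on the log2 scale (adjusted p = 0.762 by edgeR) and Notch1 had -0.59 (adjusted p = 0.504 by edgeR). For Notch1 it was -0.13 on leaving out the second GFP 16 h library and -1.31 on leaving out the first. With the first left out the log2 fold change was -0.76 for Notch2, 0.80 for Hes6 and -0.31 for Rbpj. For the difference of the E47-ER effects, 16 h minus 4 h, none was called by edgeR, DESeq2 or limma voom, 1 (Nrarp) had an unadjusted p under 0.05 in edgeR (4.92% of tested genes did), and 0.0% of all tested genes were called by edgeR. It was 0.47 for Notch1 (adjusted p = 0.736) and 0.32 for Notch2 (adjusted p = 0.735 by edgeR). On leaving out the second GFP 16 h library it was -0.002 for Notch1 and 0.01 for Notch2. On leaving out the first it was 1.20 for Notch1, 0.72 for Notch2 and -0.83 for Hes6. These comparisons share libraries with those of E47-ER against GFP.

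The 3 genes whose pattern was most like that of Nrarp over the 8 libraries, by Pearson r of log2 CPM, were Fbxo32 (r = 0.995), a ubiquitin ligase subunit known from muscle, Lsp1 (r = 0.989), an actin-binding protein of leukocytes, and Ccr9 (r = 0.988), a chemokine receptor of thymocytes and gut-homing lymphocytes. The 8 points share the 4 groups, so that these are descriptions. Lsp1 ranged from 28.8 to 67.2 CPM over the 8 libraries. Ccr9 stood at 2.00 and 1.67 CPM in E47-ER cells at 16 h, against 0.268 and 0.266 CPM in GFP cells at 16 h, and at 0.959 and 0.647 CPM in E47-ER cells at 4 h, against 0.379 and 0.317 CPM in GFP cells at 4 h. In the GFP libraries at 16 h, 3 counts correspond to 0.201 and 0.399 CPM, so that Ccr9 lay near the limit of detection there. Fbxo32 ranged from 4.43 to 8.01 CPM over the 8 libraries.

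Of 74 other genes of the Notch pathway, 60 were tested, and the remaining 14 held 1 to 50 counts each over the 8 libraries. At 16 h 1 of the 60 was called higher and 0 lower by edgeR, where 1.59% of all tested genes were called, and 15 had an unadjusted p under 0.05, where 24.0% of tested genes did. DESeq2 called 5 (7.71% of all tested genes) and limma voom 0 (0.403%). At 4 h edgeR called 0 (0.286% of all tested genes), with 3 at an unadjusted p under 0.05 (5.82%), and DESeq2 called 1 (0.894%) and limma voom 3 (2.97%). The median log2 fold change of the 60 was 0.07 at 16 h and 0.01 at 4 h. With the second GFP 16 h library left out, 9 of 61 tested were called at 16 h (4 higher, 5 lower), where 8.92% of all tested genes were, and 4 of 61 at 4 h (1 higher, 3 lower), where 4.33% were. These shares were near those of all genes.

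The gene called was Tcf7, which encodes TCF-1, a Notch target of early thymic progenitors that ILC2 development also needs. It stood at 16.7 and 19.2 CPM in E47-ER cells at 16 h, against 1.81 and 1.06 CPM in GFP cells at 16 h. After 4 h of drug the level was 6.84 and 7.40 CPM in E47-ER cells, against 2.91 and 1.48 CPM in GFP cells. Its log2 fold change was 3.55 at 16 h (SE 0.352, adjusted p = 0.00414 by edgeR) and 1.71 at 4 h (SE 0.324, adjusted p = 0.126 by edgeR). At 16 h it was 3.30 without the second GFP 16 h library and 4.09 without the first. The call at 16 h stood in 15 of 18 alternatives and was lost without replicate 2 of E47-ER at 16 h (3.46, adjusted p = 0.0535), in the 4 libraries of 16 h alone (0.0768) and by limma voom (0.0793). At 4 h it was gained in 6 of 18, with adjusted p = 5.86e-05 without replicate 2 and 5.63e-05 without replicate 1 of the GFP 16 h pair, 0.00254 in the 4 libraries of 4 h alone, 0.00128 by limma voom, 0.000519 by DESeq2 and 5.5e-06 with no filter on low counts. As with Nrarp, no E47-ER library lay below a GFP library.

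Ligand genes were low. Jag1 stood at 6.74 and 5.65 CPM in E47-ER cells at 16 h, against 2.48 and 2.79 CPM in GFP cells at 16 h, and at 4.22 and 4.10 CPM in E47-ER cells at 4 h, against 2.34 and 3.11 CPM in GFP cells at 4 h. Its log2 fold change was 1.24 at 16 h (SE 0.253, adjusted p = 0.06 by edgeR) and 0.60 at 4 h (adjusted p = 0.813 by edgeR), and it was called at 16 h in 5 of 18 alternatives, among them without the second GFP 16 h library (adjusted p = 0.00893) and without the first (0.00955). Jag2 had log2 fold changes of -0.01 at 16 h (adjusted p = 0.987) and -0.90 at 4 h (adjusted p = 0.933 by edgeR). Without the second GFP 16 h library Jag2 had -0.55 at 16 h and an adjusted p of 0.0234 at 4 h, and without the first it had 1.18 at 16 h (adjusted p = 0.0179) and an adjusted p of 0.0259 at 4 h. The Delta-like genes Dll1, Dll3 and Dll4 held 14, 10 and 10 counts over all libraries, and the noncanonical ligands Dlk1, Dlk2 and Dner held 13, 4 and 9. Notch4, the fourth receptor, had 103 counts and log2 fold changes of -0.22 at 16 h (adjusted p = 0.781) and -0.07 at 4 h (adjusted p = 1.0 by edgeR).

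No gene for glycosylation (6 tested), receptor processing (10 tested), nuclear partners (21 tested) or regulators (10 tested) passed the test at either time by edgeR on all 8 libraries. At an unadjusted p under 0.05 there were 0, 4, 4 and 3 of them at 16 h and 0 in each of these roles at 4 h, where 24.0% and 5.82% of all tested genes had one. Several were called at 16 h in some alternatives. Most often called were Tle2 (log2 fold change 1.41, edgeR adjusted p = 0.0685), in 4 of 18, and Psen2 (-0.62, edgeR adjusted p = 0.132), in 3 of 18. DESeq2 called both, where it called 7.71% of all tested genes. Of 16 further target genes 10 were tested, and Hey1, Hes5 and Ptcra were not, with 50, 1 and 8 counts over all libraries. For Il2ra, the alpha chain of the IL-2 receptor, the log2 fold change was -0.45 at 16 h (adjusted p = 0.142) and -0.33 at 4 h (adjusted p = 0.856 by edgeR). Gata3, the leading transcription factor of ILC2, had -0.43 at 16 h (adjusted p = 0.249) and -0.18 at 4 h (adjusted p = 1.0 by edgeR). Myc, a growth regulator, had -0.31 at 16 h (adjusted p = 0.358) and -0.80 at 4 h (adjusted p = 0.359 by edgeR). Without the second GFP 16 h library the adjusted p by edgeR at 16 h was 0.000814 for Il2ra (-0.53), 0.719 for Gata3 (-0.08) and 0.00256 for Myc (-0.57), and at 4 h it was 0.0192 for Il2ra and 1.03e-05 for Myc. Without the first it was 0.0049 for Il2ra, 6.97e-06 for Gata3 (-0.69) and 0.858 for Myc (0.03) at 16 h, and 0.0196 for Il2ra and 1.03e-05 for Myc at 4 h.

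**Figure D5:**
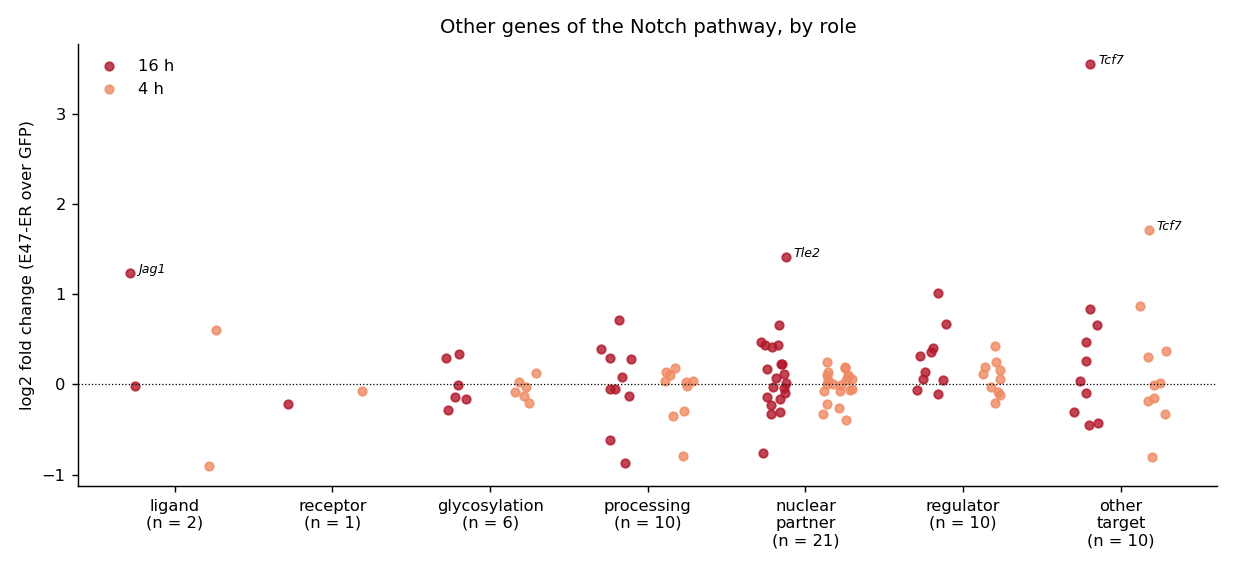
Log2 fold change of E47-ER over GFP for the 60 other tested Notch pathway genes by role, at 16 h (red) and 4 h (orange); names mark genes beyond 1.1 in either direction. Tcf7 stands apart at 3.55 at 16 h and 1.71 at 4 h, and most other genes lie near 0.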

How the data were processed

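The authors deposited raw read counts as whole numbers for Ensembl genes in each library, not normalized. Per the submitters' processing notes the build was mm10 and DESeq2 was used, in a role not stated. Not given in the sources used here: aligner, counter, strand setting, annotation. Gene IDs were matched to symbols, exon lengths and positions of GENCODE M21. The members and lists were chosen with earlier results of these data known.

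Counts were fitted in edgeR 4.0.16 (R 4.3.3; quasi-likelihood, robust) over all 8 libraries, with 1 mean per group, a minimum count of 10 and TMM factors. Genes were called at an adjusted p under 0.05 (Benjamini-Hochberg over 13644 genes, two-sided). CPM are TMM-scaled. SEs derive from the fold change and F. Alternatives were DESeq2 1.42.0, limma 3.58.1 (voom), other scalings and filters, a replicate block, a length offset and each library left out. The code was tested on simulated data. Named genes are all members, pathway genes called, fixed pathway genes and the 3 most like Nrarp. Figures used matplotlib 3.10.9. Intervals cover the spread between libraries.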

Additional observations from a re-analysis of the deposited data

How the results depend on the processing

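Of the alternatives to the members' fold changes (all 10 at 16 h and 4 h, 4 for the difference, 3 for time in E47-ER cells and 2 for time in GFP cells), 458 kept direction and call, 24 gained and 9 lost the call, and 22 reversed; the cause was not tested. At 16 h (1 member called, 217 of all genes) the members called were 2 without a filter, 2 with a length offset, 2 by DESeq2, and 0 in the 4 libraries alone, with the replicate block and by voom. All genes called were then 1816 without a filter, 6 in the 4 libraries, 54 with the replicate block, 136 with length offset and block, 55 by voom and 1052 by DESeq2. At 4 h (0 and 39) the members called were 1 without a filter, in the 4 libraries, by voom and by DESeq2. All genes were 19 by library totals, 165 without a filter, 442 in the 4 libraries, 11 with the replicate block, 25 with length offset and block, 62 with length offset, 405 by voom and 122 by DESeq2. For the difference 53 genes were called without a filter. For time in E47-ER cells (0 and 2) the members were 2 in the 4 libraries and 1 by voom, and all genes were 0 by library totals, at a minimum of 30, with the replicate block and with length offset and block, 53 without a filter, 957 in the 4 libraries, 406 by voom and 24 by DESeq2. For time in GFP cells 305 genes were called without a filter. With each library left out in turn, the members called were 0 to 4 at 16 h, 0 to 2 at 4 h, 0 to 3 for the difference, 0 to 1 for time in E47-ER cells and 0 to 4 for time in GFP cells, and all genes were 15 to 7022, 1 to 619, 0 to 5124, 0 to 440 and 0 to 6034. With a length offset the log2 fold change at 16 h was -0.07 for Notch2 (-0.065 with block) and -0.13 for Dtx2 (-0.13 with block), and Notch1 at 4 h was -0.004. Maml2 at 16 h was 0.10 by library totals and 0.034 without a filter. Values with each library left out ran at 16 h from -0.15 to 0.56 for Notch2, -0.79 to 0.075 for Notch3, -1.15 to 0.45 for Dtx1, -0.78 to 0.16 for Hes6 and -0.15 to 0.10 for Maml2. At 4 h they ran from -0.10 to 0.18 for Notch1, -1.22 to 0.57 for Notch3 and -0.079 to 0.17 for Hes6, and for the difference from -0.002 to 1.20 for Notch1 and -0.86 to 0.34 for Hes1. Scaling by library totals moved the median of all genes by 0.11 at 16 h, 0.13 for the difference and -0.11 for time in GFP cells.

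Replicate numbers were not shown to pair the libraries: deviations of same-numbered libraries correlated at -0.0901 at 16 h and 0.0237 at 4 h between transductions, at 0.0404 in E47-ER and 0.0281 in GFP cells between times, and at 0.0298 and 0.202 for the remaining 2 pairs of groups. With the replicate block Nrarp at 16 h was 1.496 (edgeR adjusted p = 0.0866). Without a length offset, this was the only call of a member that the block changed. With the length offset, the block removed the call of Rbpj at 16 h and kept that of Nrarp. Where a library was left out, the lone sample was assumed to vary like the others. Depth limits Notch3 and Dtx1.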
